A study of Mus musculus with 3 samples.

Results

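The 8 genes of inner ear potassium transport described here were measured in cells taken from the balance organ (vestibule) of mice. They are Kcne1, Kcnq1, Slc12a2, Bsnd and Esrrb, which mark the dark cells of the vestibule and the marginal cells of the cochlear stria vascularis, Kcnj10 and Kcnj13, which mark the intermediate cells of the stria, and Kcnj16. They were chosen by gene symbol, and all 8 were found among the 57180 rows of the deposited gene table. The 5 dark cell genes are set against the 2 strial intermediate cell genes, and Kcnj16 stands in neither list because the inner ear cells said to express it differ between reports.

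Endolymph, the fluid over the hair cells, is rich in potassium. Dark cells take potassium up at their basolateral side through the cotransporter NKCC1 (Slc12a2), driven by the sodium pump, and release it at their apical side through the channel formed by KCNQ1 and KCNE1, while chloride leaves again through channels that need barttin (Bsnd). In the cochlea the marginal cells do the same beside intermediate cells, pigment cells of neural crest origin whose inwardly rectifying channel KCNJ10 (Kir4.1) is needed for the endocochlear potential. The vestibule has no stria, and its melanocytes lie beneath the dark cell epithelium.

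The study made 3 libraries of polyadenylated RNA from cells that looked like black balls, and all 3 form 1 group of wild-type (WT) mice with no control. The labels call the cells macrophages, while the title of the series speaks of melanocytes. Per the labels' protocols, the 18 cells were taken from 9 mice (3 mice per group), and their cDNA was amplified with the SMART-Seq HT kit. With only 1 group, 9 mice and 3 mice per group do not match, and what a group means there is not stated. Nothing ties a library to named animals, so p-values measure only the spread between libraries, which may be technical.

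Replicates 1, 2 and 3 held 18460546, 15086854 and 14095521 counts. Levels are TPM, the deposited FPKM rescaled to 1 total per library. Calls above 1 TPM come from limma's one-sided moderated test on log2(TPM + 1) with Benjamini-Hochberg adjustment over 27265 genes. Of the genes of the labelled cell type, macrophages, 8 of 8 were called. So were 11 of 14 intermediate cell and melanocyte genes, 8 of 8 fibrocyte genes and 6 of 6 hair cell genes. Supporting cell genes had 7 of 8 called and glial genes 6 of 8. The same test called 50.5% of all protein-coding genes, and the lists were chosen with earlier results of these data known. Median levels of log2(TPM + 1) were 7.18 for macrophage, 3.73 for intermediate cell and melanocyte and 9.72 for fibrocyte genes. They were 5.15 for hair cell, 8.08 for supporting cell and 5.54 for glial genes, beside 1.49 for all genes tested. Genes listed for several cell types were thus counted in these libraries, and whether their transcripts came from several cell types was not tested. In a sum over cell types, fewer cells of a type and less RNA per cell could not be told apart. Which cells gave the 8 transcripts was not tested either.

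Of the 8 genes, 7 were called above 1 TPM in limma's test, beside 37.6% of all genes tested and 50.5% of the protein-coding genes. The 7 were Kcnj13, Slc12a2, Kcne1, Kcnj16, Kcnq1, Kcnj10 and Bsnd in falling order of mean TPM, and Esrrb, the lowest, missed the threshold. edgeR's quasi-likelihood test on the counts, with an offset that places 0 at 1 TPM, called all 8, beside 45.5% of all genes. The range was wide, with a mean of 243 TPM for Kcnj13 and 3.40 TPM for Esrrb.

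**Figure D1:**
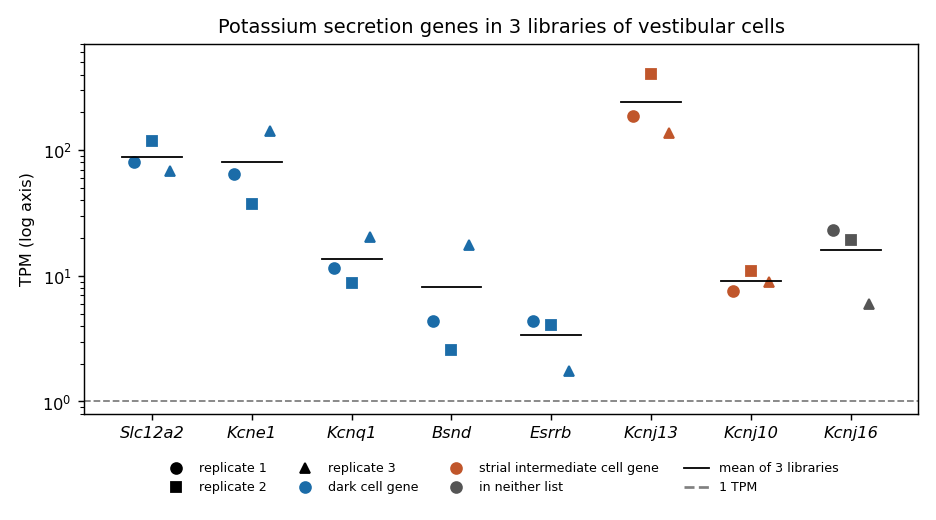
TPM of the 8 genes on a log axis, with circles for replicate 1, squares for replicate 2 and triangles for replicate 3, short lines for the mean of 3 libraries and a dashed line at 1 TPM. Every point lies above 1 TPM, Kcnj13 is highest in each library except replicate 3, where Kcne1 at 141 TPM stands beside Kcnj13 at 136 TPM, and Kcne1, Kcnq1 and Bsnd are highest in replicate 3.

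The apical potassium channel was represented by both of its subunits. Kcne1, the small accessory subunit that slows the opening of the channel (GRCm39 chromosome 16, 92142870 to 92156356), stood at 64.1, 37.4 and 141 TPM in replicates 1, 2 and 3, from 1798, 954 and 3528 counts. Its mean was 80.9 ± 53.9 TPM (SD, n = 3, as for all values below), and limma called it above 1 TPM with an adjusted p of 0.000143. Replicate 3 was the high library and replicate 2 the low one, and the highest value was 3.78 times the lowest.

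Kcnq1, the pore-forming subunit (chromosome 7, 142660099 to 142980779), stood at 11.5, 8.83 and 20.5 TPM in replicates 1, 2 and 3, from 388, 271 and 616 counts. Its mean of 13.6 ± 6.11 TPM was above 1 TPM in limma's test (adjusted p = 0.000703). The libraries fell in the same order as for Kcne1. Within each library there was more Kcne1 than Kcnq1, by 5.57, 4.23 and 6.89 times in TPM. Kcnq1 contains or overlaps 12 other listed genes, of which Kcnq1ot1, the long noncoding RNA read from the opposite strand, was the one with more than 2 counts in all (821, 299 and 696 in replicates 1, 2 and 3). The sources used here do not say whether strand was used in counting, so the reads of these genes cannot be told apart where they overlap.

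Basolateral uptake was represented by Slc12a2, which encodes NKCC1 (chromosome 18, 58011750 to 58079893). Slc12a2 stood at 80.8, 118 and 67.7 TPM in replicates 1, 2 and 3, from 6600, 8777 and 4929 counts, the largest count of the 8 genes in every library. Its mean was 88.9 ± 26.1 TPM, above 1 TPM in limma's test (adjusted p = 1.92e-05). Replicate 2 was high and replicate 3 low, the opposite of replicate 3's place for Kcne1. As a result the TPM ratio of Kcne1 to Slc12a2 was 0.794, 0.317 and 2.09 in replicates 1, 2 and 3. Fibrocytes of the inner ear also express Slc12a2, and the summed level of the 8 fibrocyte genes was 19297, 20640 and 14025 TPM in the same order, again highest in replicate 2 and lowest in replicate 3. Taken singly, 3 of the 8 had this order of libraries, beside 14.6% of all genes averaging at least 1 TPM. Of the 8, 2, 3 and 3 were highest in replicates 1, 2 and 3, so the sum does not describe each gene. The part of fibrocytes in the Slc12a2 level was not tested.

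Chloride return was represented by Bsnd, the gene of barttin (chromosome 4, 106340653 to 106349480). Bsnd stood at 4.40, 2.58 and 17.5 TPM in replicates 1, 2 and 3, from 90, 48 and 320 counts. Replicate 3 stood far above the others, by 6.81 times over replicate 2, the widest range among the 8 genes. The mean of 8.17 ± 8.17 TPM was above 1 TPM in limma's test (adjusted p = 0.0274), but the call ended without replicate 1, 2 or 3 (adjusted p = 0.178, 0.0887 and 0.141) and with a pseudocount of 5 (0.0721).

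Esrrb encodes an orphan nuclear receptor that mouse marginal and dark cells need for their identity (chromosome 12, 86407891 to 86568402). It stood at 4.40, 4.06 and 1.74 TPM in replicates 1, 2 and 3, from 354, 297 and 125 counts. Replicate 3, where Kcne1, Kcnq1 and Bsnd were highest, was the low library for Esrrb. Its mean of 3.40 ± 1.45 TPM did not pass limma's test (adjusted p = 0.0682), while edgeR's quasi-likelihood test on counts called it above 1 TPM (adjusted p = 0.00313). Neither paralog passed limma's test: Esrra stood at 2.60 ± 1.03 TPM and Esrrg at 1.30 ± 0.721 TPM. None of the 2 paralogs had an unadjusted p under 0.05 in limma's test, and edgeR called 1.

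The 2 strial intermediate cell genes stood far apart. Kcnj13, the inward rectifier Kir7.1 of retinal pigment epithelium and choroid plexus that has also been reported in strial intermediate cells (chromosome 1, 87314085 to 87322451), stood at 189, 403 and 136 TPM in replicates 1, 2 and 3, from 2143, 4167 and 1382 counts. Its mean of 243 ± 141 TPM was the highest of the 8, above 1 TPM in limma's test (adjusted p = 3.36e-05), and between 96.1% and 98.7% of the genes tested stood lower in each library. Replicate 2 was high, and replicates 1 and 3 were close to each other. Kcnj13 lies within the span of Gigyf2 (87254720 to 87378518), which had 378, 835 and 521 counts in replicates 1, 2 and 3 and was also highest in replicate 2. How much of either count comes from the other gene was not tested.

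Kcnj10, which encodes Kir4.1 and is also expressed by satellite glia and supporting cells (chromosome 1, 172168777 to 172201652), stood at 7.57, 10.9 and 8.89 TPM in replicates 1, 2 and 3, from 304, 400 and 318 counts. Its mean of 9.14 ± 1.70 TPM was above 1 TPM in limma's test (adjusted p = 0.000858). It varied least among the 8 genes, with the highest library at 1.45 times the lowest. Kcnj13 exceeded Kcnj10 by 24.9, 36.8 and 15.3 times in TPM in replicates 1, 2 and 3.

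Kcnj16 encodes Kir5.1, which joins KCNJ10 in mixed channels (chromosome 11, 110858859 to 110918794). It stood at 23.1, 19.4 and 5.92 TPM in replicates 1, 2 and 3, from 1411, 1083 and 323 counts. Replicates 1 and 2 were close and replicate 3 was low, in TPM the same order as for Esrrb. The mean of 16.1 ± 9.04 TPM was above 1 TPM in limma's test (adjusted p = 0.00194), and the call ended without replicate 1 (adjusted p = 0.0713) and without replicate 2 (0.0688). Kcnj16 was 3.05 and 1.78 times Kcnj10 in replicates 1 and 2 and 0.666 times Kcnj10 in replicate 3.

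Start regions were available for Kcnj13, Kcnj10, Kcnj16 and Esrrb, 4 of the 8 genes, from RefSeq (GRCm38.p6, a build other than the GRCm39 of the gene coordinates above). The 2 intermediate cell genes are shown because their levels lay so far apart. Kcnj16 is shown because its levels in TPM fell in the order of those of Esrrb, as seen beforehand. In CPM the 2 genes did not share that order, because Esrrb was slightly higher in replicate 2 than in replicate 1. Of all genes averaging at least 1 TPM, 41.0% were highest in replicate 1, as these 2 were in TPM. The share of genes with the whole order of libraries was not computed for these 2. The Kcnj16 start shown is the first of 4, the only one with a match to the estrogen-related receptor core. A link between Esrrb and Kcnj16 was not tested. Each line gives the 250 bases before the start, 5′ to 3′ on the strand of the gene, with matches to the searched motifs in capitals.
Kcnj13, chr1:87394730-87394979, minus strand: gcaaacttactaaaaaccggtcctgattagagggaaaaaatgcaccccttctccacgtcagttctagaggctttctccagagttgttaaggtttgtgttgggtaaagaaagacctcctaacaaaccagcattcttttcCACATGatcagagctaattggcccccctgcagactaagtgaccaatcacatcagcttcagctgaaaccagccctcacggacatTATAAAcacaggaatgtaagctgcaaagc
Kcnj10, chr1:172340960-172341209, plus strand: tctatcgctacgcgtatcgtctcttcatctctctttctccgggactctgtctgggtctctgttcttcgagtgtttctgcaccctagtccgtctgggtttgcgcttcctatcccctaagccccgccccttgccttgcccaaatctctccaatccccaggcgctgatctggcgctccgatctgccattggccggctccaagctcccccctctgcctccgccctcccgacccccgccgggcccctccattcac
Kcnj16, chr11:110967783-110968032, plus strand: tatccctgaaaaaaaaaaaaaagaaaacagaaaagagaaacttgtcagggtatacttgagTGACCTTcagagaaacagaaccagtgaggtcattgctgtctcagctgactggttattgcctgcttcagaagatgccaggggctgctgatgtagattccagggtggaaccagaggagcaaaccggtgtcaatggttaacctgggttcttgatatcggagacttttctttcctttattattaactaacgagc

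The motifs searched, on both strands of the 250 bases before and 50 bases after each start, were TATAAA (the TATA box), CATGTG (bound by MITF and other factors), CACGTG (the canonical E-box) and AAGGTCA (the core bound by estrogen-related receptors). Kcnj13 held TATAAA at positions -29 to -24 and CATGTG, on the opposite strand, at positions -112 to -107. TATAAA stood in 13.6% of the 32851 start regions of the table, CATGTG in 14.2%, CACGTG in 7.15% and AAGGTCA in 4.72%. These are shares of single start regions, whereas 4 starts were searched for Kcnj16 and the one with AAGGTCA was picked for display. None of the 4 motifs matched in the Kcnj10 region, whose 250 upstream bases were 62.0% G and C against 45.2% for Kcnj13 and a median of 52.4% over the table. The Kcnj16 start held AAGGTCA on the opposite strand at positions -190 to -184, another Kcnj16 start held TATAAA at positions -133 to -128, and neither Esrrb start held any of the 4. No 2 matches overlapped, and a match describes letters only.

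Dark cell genes had a lower mean level than strial intermediate cell genes in each of the 3 libraries, and this rested on Kcnj13. The mean of log2(TPM + 1) over the 5 dark cell genes was 4.18, 3.93 and 4.67 in replicates 1, 2 and 3, against 5.33, 6.12 and 5.20 over Kcnj10 and Kcnj13. The difference, dark minus intermediate, was -1.16, -2.19 and -0.53, or -1.29 ± 0.84. Against Kcnj10 alone the dark cell mean was higher in each library, by 0.93 ± 0.52, and against Kcnj13 alone it was lower in each, by a difference of -3.52 ± 1.15. With the non-member list of 14 intermediate cell and melanocyte genes in place of Kcnj10 and Kcnj13, the mean difference was -0.20 on the same scale. Its sign was not the same in each library, as the dark cell mean was the higher one in replicate 3. The lists hold different genes and few of them, so the amount of RNA from each cell type cannot be read from these levels.

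Gene by gene, the order was not simply one list above the other. Of the 10 combinations of a dark cell gene with a strial intermediate cell gene, 7 kept the same sign in 3 of 3 libraries. Slc12a2 and Kcne1 stood above Kcnj10 in each library, by 3.12 ± 0.28 and 2.82 ± 1.09 on the log2(TPM + 1) scale. Slc12a2, Kcnq1, Bsnd and Esrrb stood below Kcnj13 in each, with differences of -1.32 ± 0.39, -3.99 ± 1.34, -4.95 ± 1.97 and -5.70 ± 0.59, and Esrrb stood below Kcnj10, with a difference of -1.25 ± 0.59. Kcne1 minus Kcnj13 was -1.54, -3.39 and 0.05 in replicates 1, 2 and 3, so those 2 genes did not keep their order. Among the 14 pairs examined, these 10 together with the other neighbours in the order of levels, the exact sign-flip permutation test gave no p under 0.25, the smallest that 3 libraries allow (two-sided, smallest adjusted p = 0.438).

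Neighbours in the order of levels mostly did not differ beyond their spread. Slc12a2 and Kcne1 differed by 0.30 ± 1.34, Kcnj16 and Kcnq1 by 0.12 ± 1.52, Kcnq1 and Kcnj10 by 0.46 ± 0.70, and Bsnd and Esrrb by 0.75 ± 1.75 on the log2(TPM + 1) scale. Bsnd minus Kcnj10 was -0.50 ± 1.33. The steps from Kcnj13 to Slc12a2 and from Kcne1 to Kcnj16 were the neighbours with the same sign in 3 of 3 libraries. Of the 14 pairs, 8 kept their sign across all 3 libraries, and 13 did across replicates 1 and 2 alone, a number that cannot fall with fewer libraries.

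The genes did not vary together as one set across libraries. Kcne1, Kcnq1 and Bsnd were highest in replicate 3 and lowest in replicate 2. Slc12a2, Kcnj13 and Kcnj10 were highest in replicate 2, and Esrrb and Kcnj16 were highest in replicate 1 and lowest in replicate 3. For Esrrb replicates 1 and 2 were nearly tied, and replicate 2 was the higher in CPM (19.2 and 19.7 in replicates 1 and 2). The same held with TMM or DESeq2 factors. Among the 17322 genes with a mean of at least 1 TPM, 41.0% were highest in replicate 1, 22.8% in replicate 2 and 36.2% in replicate 3. The SD of log2(TPM + 1) over libraries was 0.95 for Kcne1, larger than for 93.9% of the 808 protein-coding genes within 0.5 of its mean level. It was 1.24 for Bsnd, larger than for 90.1% of 2784 such genes, 0.98 for Kcnj16 (87.7% of 1815) and 0.80 for Kcnj13 (93.5% of 324). For Kcnj10 it was 0.24, larger than for 13.5% of 2409 such genes. Kcnq1, Slc12a2 and Esrrb, at 0.58, 0.41 and 0.54, lay between 40.5% and 54.3% of theirs.

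**Figure D2:**
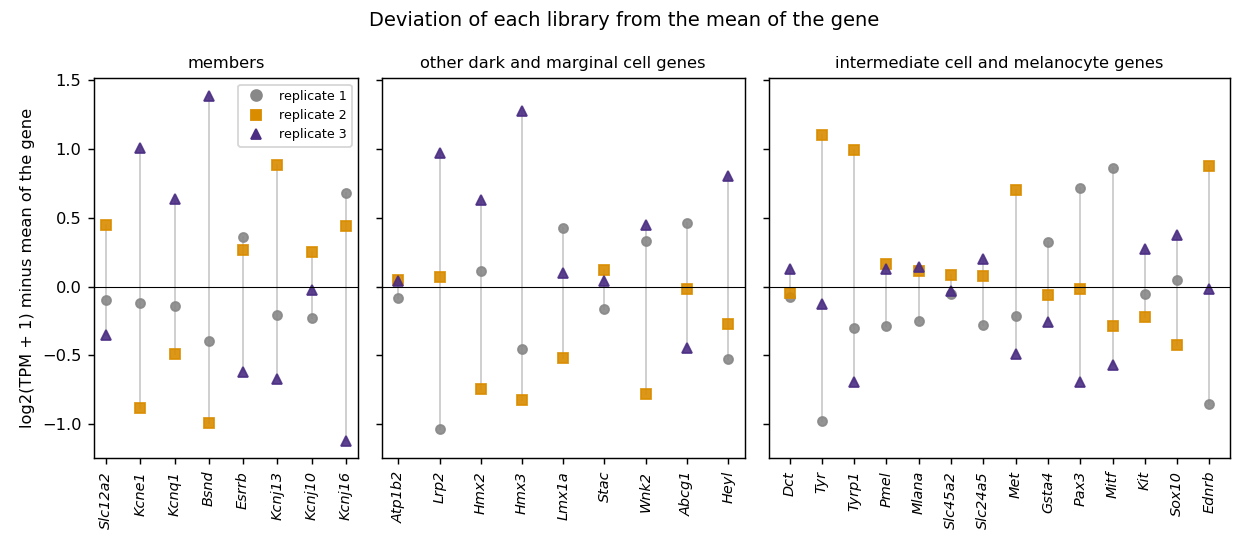
Deviation of each library from the mean of the gene over 3 libraries, on the log2(TPM + 1) scale, for the 8 genes, for 9 of the 11 other dark and marginal cell genes averaging 1 TPM or more, and for the 14 intermediate cell and melanocyte genes. Triangles (replicate 3) lie on top for Kcne1, Kcnq1 and Bsnd and for 5 of the 9 plotted genes of the middle panel, squares (replicate 2) for Slc12a2, Kcnj13 and Kcnj10 and for 6 of the 14 intermediate cell and melanocyte genes.

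Other genes of dark and marginal cells were present in the same libraries. Of 14 such genes, 10 (71.4%) were called above 1 TPM in limma's test, beside 50.5% of protein-coding genes, and the median of their mean levels was 3.30 on the log2(TPM + 1) scale, beside 3.79 for the 5 dark cell genes above and 1.49 for all genes tested. Atp1b2, a subunit of the sodium pump, stood at 81.7 ± 4.03 TPM. The kinase gene Wnk2 and the transcription factor gene Lmx1a stood at 25.6 ± 10.6 and 17.0 ± 5.60 TPM. Of the 11 that averaged at least 1 TPM, 7 were highest in replicate 3 and 6 lowest in replicate 2, beside 36.2% and 41.2% of all genes at that level. Among the 9 of these shown in the plot of deviations the counts were 5 and 4. Hmx3, Dcdc2a and Shroom3 were among those that did not pass.

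Other genes of intermediate cells and melanocytes did not share 1 library pattern. Of 14, 11 (78.6%) were called above 1 TPM in limma's test, beside 50.5% of protein-coding genes. Their median level was 3.73 on the log2(TPM + 1) scale, and 3, 6 and 5 of them were highest in replicates 1, 2 and 3. The glutathione transferase gene Gsta4 stood at 862 ± 183 TPM, the pigment enzyme gene Dct at 250 ± 19.6 TPM, Mlana at 232 ± 33.8 TPM and Pmel, whose protein forms melanosome fibrils, at 72.4 ± 12.0 TPM. Dct stood at 236, 242 and 273 TPM, and the TPM ratio of Kcnj13 to Dct was 0.798, 1.67 and 0.5002 in replicates 1, 2 and 3. The order of libraries seen for Kcnj13 was shared by 2 of the 14 genes, Tyrp1 (8.06, 21.2 and 5.93 TPM) and Met (5.48, 11.2 and 4.36 TPM), named after their values were seen. That share, 14.3%, is near the 14.6% of all genes averaging at least 1 TPM with that order. Summed over the 14 genes the level was 1649, 1530 and 1425 TPM, and Mitf, Pax3 and Kit did not pass.

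Strial basal cell genes, 5 of 5, were called above 1 TPM in limma's test, led by the claudin gene Cldn11 (35.2 ± 26.6 TPM) and the glucose transporter gene Slc2a1 (16.2 ± 6.67 TPM), then Tjp1 (15.9 ± 3.09 TPM) and Sox8 (9.92 ± 2.82 TPM). Several of them are also expressed outside the stria, Cldn11 by myelinating glia for example. The same test called 50.5% of protein-coding genes, so these calls alone do not show strial cells. The labels place the libraries in the vestibule.

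Of 9 regulators and relatives of NKCC1, 6 (66.7%) were called above 1 TPM in limma's test, beside 50.5% of protein-coding genes, and 4 were called when replicate 1, 2 or 3 was left out. The 6 include the activating kinase gene Stk39 (16.5 ± 4.84 TPM), the potassium-chloride exporter Slc12a4 (13.9 ± 6.48 TPM), and Wnk4 (5.70 ± 4.92 TPM). Slc12a1, the NKCC2 cotransporter gene of the kidney, had 0, 1 and 0 counts in replicates 1, 2 and 3, and Slc12a3 had 0 counts in each. Counts of 0 allow levels up to the floor of 3 counts, or 0.163, 0.199 and 0.213 CPM (counts over the library total) in replicates 1, 2 and 3, for counting error only.

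Relatives of the channel subunits were sparse. Of 8 genes for other KCNE subunits and KCNQ channels, 0 were called above 1 TPM in limma's test, with 1 at an unadjusted p under 0.05 and 1 called by edgeR. Kcne2 stood at 7.93, 1.34 and 0 TPM in replicates 1, 2 and 3. Kcnq3 and Kcne3 averaged 1.07 ± 1.02 and 0.281 ± 0.443 TPM, and Kcne5, listed under its older symbol Kcne1l, had 0 counts in each library. Of 12 other inward rectifier genes, 0 were called, 0 had an unadjusted p under 0.05 in limma's test, and edgeR called 0. The highest of these 12 was Kcnj2 at 2.45, 1.11 and 1.11 TPM in replicates 1, 2 and 3, ahead of Kcnj8 (0.956 ± 1.66 TPM), Kcnj11 (0.950 ± 0.831 TPM) and Kcnj3 (0.660 ± 0.714 TPM), and Kcnj4, Kcnj5, Kcnj9 and Kcnj14 had 0 counts in each library. The same test called 50.5% of protein-coding genes. Kcnj10, Kcnj13 and Kcnj16 were the inward rectifier genes called, out of the 15 examined. These 3 were chosen with earlier results of these data known, so the split describes the choice as well as the levels.

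**Figure D3:**
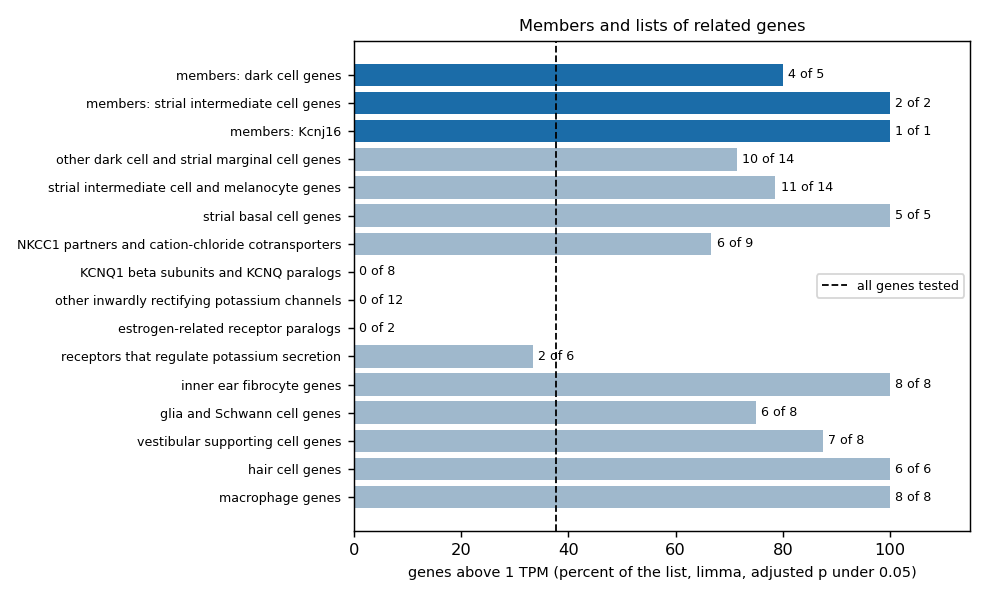
Share of the genes in each list called above 1 TPM by limma's test (adjusted p under 0.05), in percent, with the number called of the number in the table beside each bar and a dashed line for all genes tested (37.6%). Members (dark blue) and the other dark and marginal cell genes lie to the right of the line, the second with 10 of 14, and the lists of KCNQ and KCNE relatives, other inward rectifiers and estrogen-related receptor paralogs are at 0.

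By library pattern over 3 libraries, the genes closest to Kcnj16 among 5297 protein-coding genes averaging 10 TPM or more were Myl12b, Eif2b1 and Hsdl2, and the closest to Kcne1 were Fxr2, Ppp1r9b and Sncg. Likeness was the largest difference between log2(TPM + 1) values centred on the mean of each gene, which was at most 0.04 for the 3 named for Kcnj16 and at most 0.03 for the 3 named for Kcne1. With 3 libraries many genes share a pattern by this measure, and 167 genes lay within 0.25 of Kcnj16 and 78 within 0.25 of Kcne1.

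The levels above depend on the gene length used in the deposited FPKM. That length equalled the sum of all distinct annotated exons, with overlapping exons of different transcripts counted again, for 93.4% of 13255 protein-coding genes matched to GENCODE M21, and for 8 of the 8 genes described here. It equalled the merged exon length for 9.82% of them, and for 2 of the 8, Bsnd and Kcnj10. Genes with many overlapping transcripts therefore have FPKM values that are low for their merged length. For Kcnj16 the deposited length was 8242 bases against a merged length of 3936, for Esrrb 10839 against 6047, for Kcnj13 1531 against 1270, for Kcne1 3776 against 3214, for Kcnq1 4540 against 4093 and for Slc12a2 11000 against 10920.

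With merged lengths Kcnj16 stood at 27.2 ± 15.0 TPM, 1.68 times its level above, and Esrrb at 4.90 ± 2.05 TPM, which passed limma's test (adjusted p = 0.0211). Kcne1 then stood at 76.7 ± 51.7 TPM and Slc12a2 at 72.1 ± 21.4 TPM, in reverse order of their means, and Kcnj13 remained highest at 236 ± 138 TPM. With the length of the longest coding transcript, Esrrb stood at 5.28 ± 2.22 TPM, 1.55 times its level above, and Bsnd at 5.05 ± 5.07 TPM, where its call ended (limma, adjusted p = 0.0871). Bsnd and Kcnj10 stood at 0.618 times their levels above with that length. Dark minus intermediate was -1.21 ± 0.82 with merged lengths and -0.88 ± 0.81 with the longest coding transcript, lower for the dark cell genes in 3 of 3 libraries with both lengths.

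**Figure D4:**
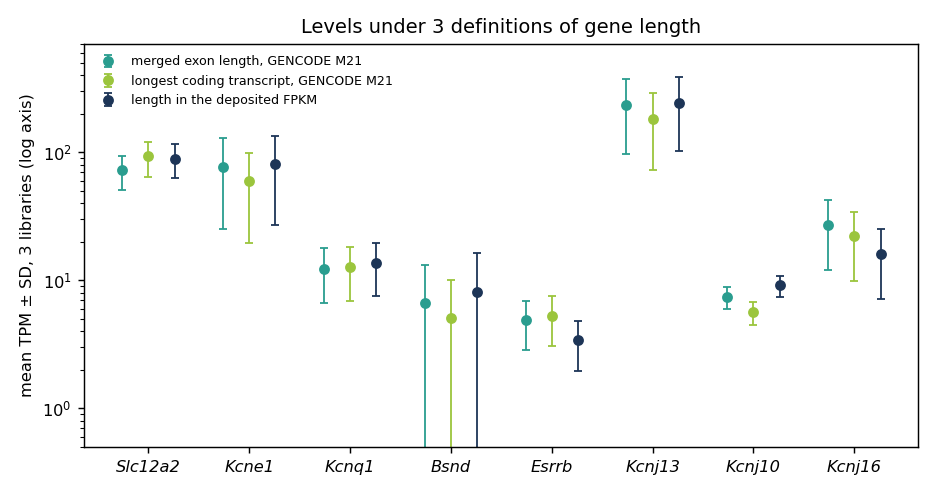
Mean TPM ± SD over 3 libraries of the 8 genes on a log axis under 3 lengths, the merged exon length and the longest coding transcript of GENCODE M21 and the length in the deposited FPKM. Kcnj16 and Esrrb are higher with both M21 lengths than with the deposited one, Kcnj13 is highest under each, and the lower bars of Bsnd leave the axis because its SD is as large as its mean.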

How the data were processed

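Raw counts and FPKM of each gene in 3 libraries were deposited in 1 table, per the file headers. HISAT2, StringTie, edgeR and the build GRCm39 are named in the submitters' processing notes, and their versions, roles and order are not given in the sources used here, nor are the assignment of reads that match several genes and the use of strand. The deposited FPKM was rescaled to TPM. limma 3.58.1 tested log2(TPM + 1) against 1 TPM (intercept only, with a mean-variance trend, one-sided) over the genes counted in 1 library or more, with Benjamini-Hochberg adjustment and a threshold of 0.05. The pseudocount of 1 compresses low values. With 1 group there is no contrast for a count test, so edgeR 4.0.16 (a quasi-likelihood test of the intercept, with offsets for 1 TPM) was an alternative, as were DESeq2 1.42.0 size factors, edgeR's TMM factors, CPM, other pseudocounts and filters, and leaving out each library. TPM with GENCODE M21 lengths (GRCm38, matched by gene ID, lengths only) were 2 alternatives added after seeing the data. Differences between genes had an exact permutation test that flips signs over libraries. The tests were tried on simulated counts. The 8 members and the 13 lists of related genes were chosen with earlier results of these data known. Each list names its 4 genes with the highest mean TPM and any with 0 counts in all libraries (some genes of these lists are counted but not reported here by name), and genes that overlap a member are named. The 3 genes nearest in library pattern are named for the 2 members with the largest ratio between libraries among those averaging at least 10 TPM. Python 3.11.15 and R 4.3.3 were used. Without molecular identifiers PCR copies are counted too, so floors set by depth cover counting error only.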

Additional observations from a re-analysis of the deposited data

How the results depend on the processing

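Between 5 and 8 of the 8 genes stood above 1 TPM across 13 alternatives, against 7 in the main test, and without single replicates the number was 5 to 6. The CPM alternative among the 13 tested against 1 CPM, a threshold unlike 1 TPM. Kcne1, Kcnq1, Slc12a2, Kcnj10 and Kcnj13 were called under every one of these 13 (adjusted p up to 0.0403, for Kcnq1 without replicate 1). Esrrb passed under 7 of them, by limma with a pseudocount of 0.1, in CPM, among genes counted in all 3 libraries, without the trend and with both GENCODE lengths, and by edgeR. Dark minus intermediate was -1.29 in the mean over libraries, and this mean stayed below 0 under every alternative. It was -0.37 in CPM without gene length and -0.20 with the non-member intermediate cell and melanocyte list. With Kcnj16 counted among the strial intermediate cell genes it was -0.75. Under each of these alternatives the difference was above 0 in replicate 3, so the sign in single libraries was less stable than the mean. Without single replicates the mean was between -1.67 and -0.84. The number of pairs with the same sign in every library was 8, and 8 to 13 without single replicates, 13 being the value without replicate 3. Leaving out a library cannot lower this number, because a pair with the same sign in 3 libraries keeps it in any 2 of them. The cause of the other shifts was not tested. Over the 13 related lists, 69 genes were called, and 56 to 76 under the alternatives, 76 being the number above 1 CPM. TMM and DESeq2 factors moved the libraries by at most 0.13 on the log2 scale. Testing all rows was not run, because most rows then have no variance. No paired analysis was possible because the labels give 1 group. With 3 libraries and few cells behind each, amplification adds spread that depth does not reduce.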

Other observations

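Receptors known to regulate potassium secretion were counted unevenly. Of 6 genes, 2 (33.3%) were called above 1 TPM in limma's test, beside 50.5% of protein-coding genes. P2rx2, an ATP-gated channel through which potassium can leave the endolymph, stood highest. P2rx2 had 46.9 TPM in replicate 1, 27.8 TPM in replicate 2 and 11.3 TPM in replicate 3, the library where Kcnj16 and Esrrb were lowest too. P2ry2 stood at 2.49 ± 1.72 TPM and Chrm3 at 0.489 ± 0.749 TPM and did not pass. Adrb1 and P2ry4, the beta-adrenergic and purinergic receptors described in dark and marginal cells of rodents, had 0 counts in each library.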
